A study of Mus musculus with 12 samples.

Results

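Cdkn2a, Cdkn2b, Il1a, Il1b, Il1rn, Il6, Tnf and Cxcl1 are 8 genes for cyclin-dependent kinase inhibitors of the senescence programme and for inflammatory factors that senescent cells and immune cells secrete. They were taken as every probe on the array whose RefSeq accession maps to these symbols, which gave 10 probes for the 8 genes, of 20871 genes named on the array. Signal above background on at least 3 arrays was the condition for testing, and 6 of the 8 genes met it: Cdkn2a, Cdkn2b, Il1b, Il6, Tnf and Cxcl1. Il1a and Il1rn did not, and are described by their values only.

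The RNA came from gonadal white adipose tissue of male C57BL/6N mice aged 59 to 67 days. Mice deficient for Gadd45a, a stress-induced protein linked to DNA repair and demethylation, and mice deficient for Ing1, a reader of trimethylated histone H3 lysine 4, had been interbred. The 4 groups are wild type (WT), Gadd45a deficient (Gadd45a-KO), Ing1 deficient (Ing1-KO) and Gadd45a-/-;Ing1-/- double mutant (DKO). Neither knockout is restricted to a cell type in the labels. Each group has 3 one-colour arrays, each hybridized with RNA pooled from 3 animals, so that 9 animals per genotype are represented and the spread between animals of a pool is not seen. The 3 slides each held 1 array of every genotype, and slide, scan and replicate number coincide.

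The Ing1 labels and the probes of the targeted gene ran together. The brightest Ing1 probe had a mean normalized log2 signal of 12.46 ± 0.03 (SD, n = 3) for WT and of 12.55 ± 0.21 for Gadd45a-KO, and of 9.40 ± 0.13 and 9.32 ± 0.25 for Ing1-KO and DKO. The single Gadd45a probe was not lower in the arrays labelled as lacking Gadd45a: its means were 9.51 ± 0.25 for WT, 9.20 ± 0.12 for Ing1-KO, 10.17 ± 0.11 for Gadd45a-KO and 10.61 ± 0.0086 for DKO. Where this probe lies relative to the deleted part is not given in the sources used here, so it checks nothing, and Gadd45a-KO and DKO below mean the arrays labelled so. All 15 white adipocyte markers examined, among them Adipoq and Plin1, were above background on all 12 arrays, whereas of 8 mesothelial markers 3 were above background on all 12 arrays and Msln, Upk3b, Wt1 and Upk1b on none. The median spot signal ranged from 39.3 to 68.8 across arrays, and 58.2% to 68.1% of spots were well above background. With 12 arrays in all, the number of arrays limits the precision.

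Cdkn2a encodes p16INK4a and, from a separate first exon, the Arf protein. p16INK4a and the p15INK4b product of the neighbouring gene Cdkn2b bind the kinases Cdk4 and Cdk6 and keep Rb active, which holds cells out of S phase, and Arf stabilizes p53 by restraining Mdm2. Senescent cells also secrete cytokines: interleukin 1 alpha and 1 beta signal through the receptor Il1r1, the antagonist encoded by Il1rn blocks that receptor, and NF-kB then drives genes such as Il6, Tnf and Cxcl1, whose product attracts neutrophils through Cxcr2. In fat, macrophages and other leukocytes are known sources of Il1b and Tnf, so a tissue level reflects the cells present as well as their activity. In bulk tissue such as this, fewer cells of a type and less RNA per cell cannot be told apart.

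The promoters of the members the results turn on are shown to set the sequences beside the expression values. They are RefSeq windows of GRCm38.p6 that run from 250 bases before to 50 bases after the annotated start, written 5′ to 3′ in the direction of the gene. All 8 genes matched, with 11 windows. Capitals mark matches, on either strand, to the NF-kB consensus, to the C/EBP motif TTNNGNAA or to the TATA box TATAAA; the AP-1 motif TGANTCA was searched too and is not in these 5 windows. Cdkn2a has an upstream start, known as that of Arf, on the minus strand at chr4:89294570-89294869, and a downstream start, known as that of p16INK4a, at chr4:89282143-89282442. The Cdkn2b window lies further upstream on the same strand, at chr4:89310983-89311282. The Il1b window is chr2:129371090-129371389 on the minus strand, and that of Cxcl1 is chr5:90890995-90891294 on the plus strand.
Cdkn2a, upstream start: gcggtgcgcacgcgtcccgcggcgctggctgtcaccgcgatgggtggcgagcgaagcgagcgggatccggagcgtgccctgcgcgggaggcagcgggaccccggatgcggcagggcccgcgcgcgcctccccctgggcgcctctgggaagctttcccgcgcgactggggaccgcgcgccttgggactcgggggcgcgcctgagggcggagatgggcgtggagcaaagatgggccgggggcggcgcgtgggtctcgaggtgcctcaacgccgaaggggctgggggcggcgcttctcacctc
Cdkn2a, downstream start: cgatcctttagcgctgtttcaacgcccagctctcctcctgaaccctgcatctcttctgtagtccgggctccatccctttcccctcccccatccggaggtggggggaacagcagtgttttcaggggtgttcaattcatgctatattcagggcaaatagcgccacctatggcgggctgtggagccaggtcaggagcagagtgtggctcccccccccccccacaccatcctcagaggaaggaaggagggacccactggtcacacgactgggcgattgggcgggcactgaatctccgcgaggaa
Cdkn2b: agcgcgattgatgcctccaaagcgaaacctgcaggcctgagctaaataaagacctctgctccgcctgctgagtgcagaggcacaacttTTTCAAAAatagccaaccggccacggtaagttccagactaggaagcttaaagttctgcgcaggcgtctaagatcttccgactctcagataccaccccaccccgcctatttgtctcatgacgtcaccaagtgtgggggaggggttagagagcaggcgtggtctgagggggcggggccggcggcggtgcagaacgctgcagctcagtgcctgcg
Il1b: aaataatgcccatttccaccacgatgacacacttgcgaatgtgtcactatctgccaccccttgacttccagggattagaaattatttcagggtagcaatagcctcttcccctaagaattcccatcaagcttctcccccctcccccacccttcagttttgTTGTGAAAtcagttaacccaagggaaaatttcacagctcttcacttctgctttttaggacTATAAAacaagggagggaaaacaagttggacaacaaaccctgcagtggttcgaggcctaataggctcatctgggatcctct
Cxcl1: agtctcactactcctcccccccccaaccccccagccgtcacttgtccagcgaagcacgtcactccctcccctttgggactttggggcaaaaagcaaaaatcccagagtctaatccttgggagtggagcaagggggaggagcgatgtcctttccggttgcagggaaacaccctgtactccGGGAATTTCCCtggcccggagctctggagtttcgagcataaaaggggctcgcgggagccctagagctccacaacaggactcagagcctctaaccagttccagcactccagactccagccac
The upstream Cdkn2a window holds 45 CpG dinucleotides and is 77% G and C, and 98.1% of the 32851 RefSeq promoter windows hold fewer CpG. The downstream Cdkn2a window holds 12 CpG, the Cdkn2b window 18, the Cxcl1 window 10 and the Il1b window 3, against a median of 7 over all windows. In the Cxcl1 window 2 overlapping NF-kB matches, 1 on each strand, begin 71 and 70 bases before the start, and 8.46% of all windows hold this consensus. The Il1b window has a TATA box 31 bases before the start, as 13.6% of windows do at any place, and a C/EBP match 91 bases before it, a motif present in 40.7% of windows. The Cdkn2b window has a C/EBP match 162 bases before the start. A match is a stretch of letters and not a measured site, and no binding or methylation was measured here.

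Cdkn2a was highest in Gadd45a-KO and lowest in DKO. Its brighter probe, above background on all 12 arrays, had normalized log2 signals of 7.26, 7.12 and 7.46 in WT and of 7.996, 8.01 and 7.93 in Gadd45a-KO. It read 6.74, 6.84 and 7.20 in Ing1-KO and 6.75, 5.49 and 6.89 in DKO. The 3 Gadd45a-KO arrays lay together above all 9 others, DKO lay below WT without overlap, and DKO replicate 2 lay far below every other array. The group means in descending order were 7.98 ± 0.05 (SD, n = 3) in Gadd45a-KO, 7.28 ± 0.17 in WT, 6.93 ± 0.24 in Ing1-KO and 6.37 ± 0.77 in DKO, and of these neighbours only Gadd45a-KO and WT did not overlap. A second Cdkn2a probe was not well above background on any array, with values between 1.70 and 2.89. Both probes are assigned to the same RefSeq record and their place in the gene is not given in the sources used here, so the p16INK4a and Arf transcripts could not be separated.

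Cdkn2b, the neighbour of Cdkn2a, did not follow it. Its brighter probe read 9.81, 10.09 and 9.92 in WT, 10.23, 10.13 and 9.77 in Gadd45a-KO, 10.11, 9.82 and 10.13 in Ing1-KO and 10.67, 10.72 and 9.90 in DKO. DKO replicates 1 and 2 were the highest of the 12 arrays, while DKO replicate 3 lay within the range of every other group, so no pair of groups separated. The dimmer Cdkn2b probe gave the same picture, with 7.96, 8.10 and 7.28 in DKO against 6.98 to 7.73 over the other 9 arrays.

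Il1b, encoding the interleukin 1 beta precursor made mainly by myeloid cells, had the same order of groups as Cdkn2a. Its signals were 7.04, 6.15 and 6.32 in WT, 7.52, 7.64 and 7.12 in Gadd45a-KO, 5.98, 6.06 and 6.33 in Ing1-KO and 5.45, 5.70 and 6.12 in DKO. Every Gadd45a-KO array was above every other array and every DKO array was below every WT array, while DKO and Ing1-KO overlapped. WT replicate 1 stood above the other WT arrays and close to Gadd45a-KO. The probe is printed in 9 to 10 usable spots per array, with an SD of 0.07 to 0.17 between spots, against an SD of 0.18 to 0.47 between the arrays of a group.

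Cxcl1, the neutrophil-attracting chemokine, was lowest in DKO. It read 6.15, 6.14 and 6.07 in WT, 5.99, 6.31 and 6.67 in Gadd45a-KO, 5.56, 5.79 and 5.92 in Ing1-KO and 4.99, 5.51 and 5.33 in DKO. All 6 arrays without Ing1 were below all 6 with it, and the DKO arrays were below the Ing1-KO arrays without overlap; Gadd45a-KO and WT overlapped.

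Tnf, the gene for tumour necrosis factor, was nearly level in 11 arrays. It read 8.59, 8.73 and 8.83 in WT, 8.90, 8.97 and 8.87 in Gadd45a-KO, 8.46, 8.86 and 8.97 in Ing1-KO and 8.46, 7.62 and 8.79 in DKO. DKO replicate 2 was the lowest array, as for Cdkn2a, and the other DKO arrays overlapped with Ing1-KO. The SD between the 9 to 10 spots of the Tnf probe was 0.05 to 0.09.

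Il6, encoding interleukin 6, was near the detection limit, above background on 8 of 12 arrays: all 3 Gadd45a-KO arrays, 2 WT, 2 Ing1-KO and 1 DKO. Its signals were 4.53, 4.22 and 4.03 in WT, 4.64, 4.48 and 4.70 in Gadd45a-KO, 4.42, 3.85 and 3.95 in Ing1-KO and 4.11, 4.12 and 3.404 in DKO. The Gadd45a-KO arrays lay above those of Ing1-KO and DKO without overlap, and every other pair of groups overlapped. The SD between the 2 spots of the Il6 probe ranged from 0.01 to 0.54.

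**Figure D1:**
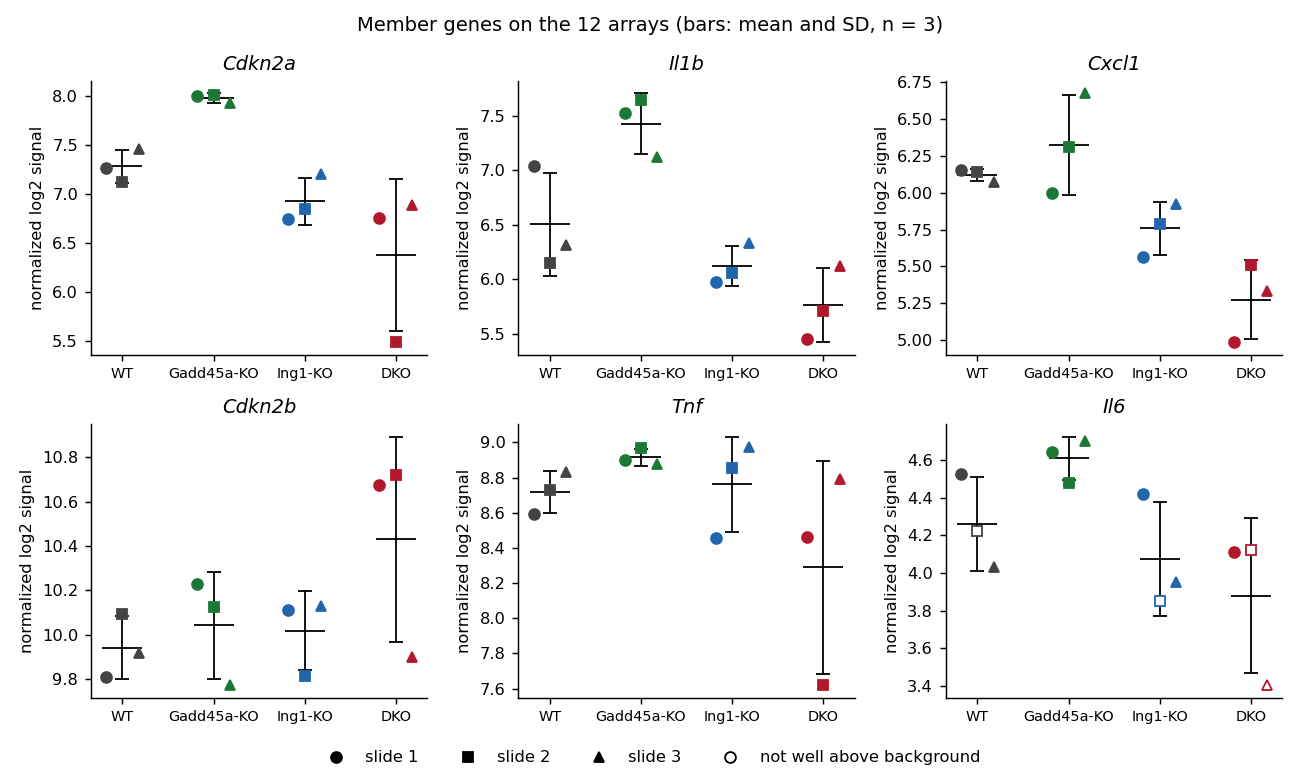
Normalized log2 signal (y axis) of the 6 tested genes in each genotype (x axis), 1 point per array with the shape giving the slide, and the mean and SD over 3 arrays. In the Cdkn2a and Il1b panels the 3 Gadd45a-KO arrays lie above all others, in the Cxcl1 panel all arrays without Ing1 lie below all arrays with it, and DKO replicate 2 (square) is the lowest array for Cdkn2a and Tnf.

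Il1a and Il1rn, the second agonist and the antagonist of the interleukin 1 receptor, were at or below the detection limit. Il1a was above background only in Gadd45a-KO replicate 1, and read 4.60, 3.84 and 4.34 in Gadd45a-KO, 3.48, 2.60 and 2.67 in WT, 3.49, 4.05 and 2.88 in Ing1-KO and 3.03, 2.55 and 3.17 in DKO. Il1rn was above background only in Gadd45a-KO replicates 1 and 2, at 4.89 and 4.17, and read 2.49 in replicate 3, below all other arrays. Over the other 9 arrays Il1rn ranged from 2.97 to 4.58, and its groups overlapped. No fold is given for Il1a or Il1rn.

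**Figure D2:**
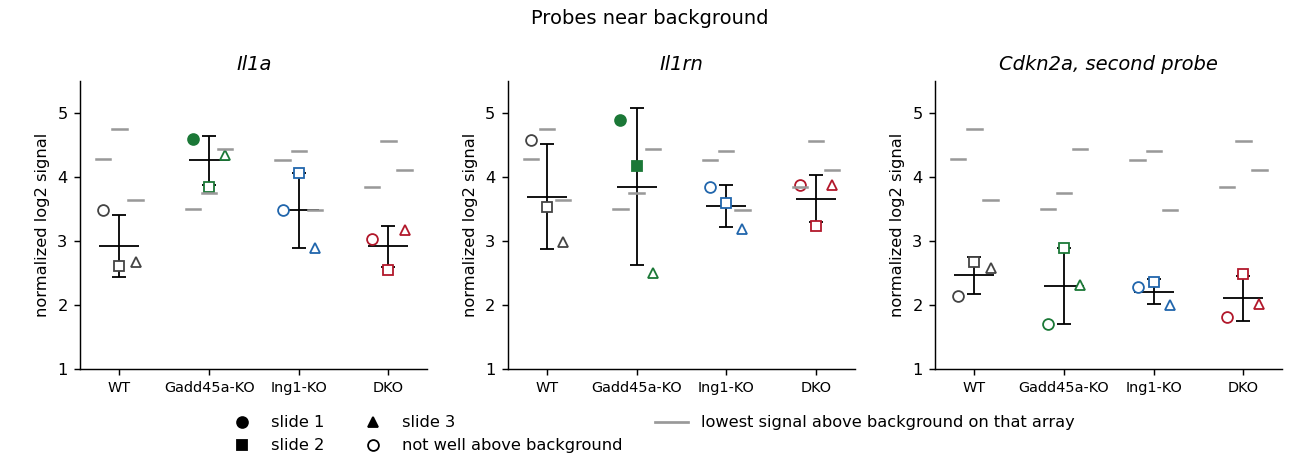
Normalized log2 signal (y axis) of the probes for Il1a, Il1rn and the second Cdkn2a probe in each genotype (x axis), with 1 point per array, open where not well above background, and the mean and SD over 3 arrays; grey dashes mark the lowest signal called above background on each array. The only filled points are in Gadd45a-KO, 1 for Il1a and 2 for Il1rn.

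The first comparison asks how each knockout differs from wild type. In limma's test over 31453 genes and unnamed probes, none of the 6 genes passed an adjusted p of 0.05 in Gadd45a-KO against WT, where 0% of all features did. At an unadjusted p under 0.05, 2 of 6 genes were higher against 1.54% of all features: Il1b by a log2 fold change of 0.93 ± 0.26 (SE), which is 1.90-fold, and Cdkn2a by 0.70 ± 0.30, which is 1.62-fold, both with an adjusted p of 0.9997. Within the slides the Gadd45a-KO array exceeded the WT array by 0.48, 1.495 and 0.80 for Il1b and by 0.73, 0.89 and 0.47 for Cdkn2a. The values of Il1b, Cdkn2a and Tnf did not overlap between these groups, with 3 of 6 genes higher without overlap against 5.53% of all features. The log2 fold changes of the other members were 0.35 ± 0.29 for Il6, 0.20 ± 0.25 for Tnf, 0.20 ± 0.21 for Cxcl1 and 0.10 ± 0.21 for Cdkn2b, and the median of the 6 genes was 0.28 against 0.00 for all features.

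In Ing1-KO against WT none of the 6 genes passed in limma's fit, and 0.00318% of all features did; none reached an unadjusted p under 0.05, against 8.6% of all features. The smallest p was that of Cxcl1, at a log2 fold change of -0.36 ± 0.21 with adjusted p = 0.641, and its values lay below WT without overlap, as did those of 10.2% of all features. Il1b was at -0.38 ± 0.26, Cdkn2a at -0.36 ± 0.30, Il6 at -0.18 ± 0.29, Tnf at 0.04 ± 0.25 and Cdkn2b at 0.08 ± 0.21.

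DKO against WT gave larger differences that did not pass the threshold. None of the 6 genes passed, and 0.162% of all features did, while 4 of 6 had an unadjusted p under 0.05 against 23% of all features. Cxcl1 was at -0.84 ± 0.21 (adjusted p = 0.0793), Cdkn2a at -0.91 ± 0.30 (adjusted p = 0.12), Il1b at -0.74 ± 0.26 (adjusted p = 0.13) and Cdkn2b at 0.49 ± 0.21 (adjusted p = 0.19). Tnf was at -0.43 ± 0.25 and Il6 at -0.38 ± 0.29. The values of Cxcl1, Cdkn2a and Il1b lay below WT without overlap, 3 of 6 genes against 12.6% of all features. Their differences within the slides therefore had to be negative. Those of Tnf and Il6, whose values overlapped with WT, were negative within all 3 slides too. With the slide as a block, Cxcl1 passed at adjusted p = 0.0492. Without DKO replicate 3, Cxcl1, Cdkn2a and Cdkn2b passed, with adjusted p of 0.0449, 0.0369 and 0.0224. Without DKO replicate 2, Cdkn2a was at -0.46 and Tnf at -0.09. These comparisons share the WT arrays.

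The largest differences were those between the arrays with and without Ing1 among mice labelled as lacking Gadd45a. In DKO against Gadd45a-KO, Il1b fell by 1.67 ± 0.26 on the log2 scale, a 3.18-fold difference (adjusted p = 0.0086), Cdkn2a fell by 1.60 ± 0.30, a 3.04-fold difference (adjusted p = 0.0127), and Cxcl1 fell by 1.05 ± 0.21, a 2.07-fold difference (adjusted p = 0.0153). So 3 of 6 genes passed, all lower, where 15% of all features passed and 8.47% passed as lower. Of all features, 0.719% had a lower fold change than Il1b, 0.865% a lower one than Cdkn2a and 4.31% a lower one than Cxcl1. Tnf at -0.62 ± 0.25 (adjusted p = 0.10), Il6 at -0.73 ± 0.29 (adjusted p = 0.108) and Cdkn2b at 0.39 ± 0.21 (adjusted p = 0.22) did not pass. The values of all but Cdkn2b lay lower in DKO without overlap, 5 of 6 genes against 20.8% of all features, and the median of the 6 was -0.89 against -0.03 for all features.

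Since the values of Il1b, Cdkn2a and Cxcl1 did not overlap between these groups, their differences within each slide had to be negative. Their sizes are given as a description. DKO less Gadd45a-KO was -2.07, -1.94 and -0.99 for Il1b, -1.25, -2.53 and -1.04 for Cdkn2a and -1.01, -0.80 and -1.34 for Cxcl1. Slide 2 gave the largest Cdkn2a difference, through DKO replicate 2, without which the Cdkn2a fold change was -1.16 and still passed. Only Il1b passed when the 6 arrays of these groups were fitted alone, with adjusted p = 0.048, while Cdkn2a reached 0.0545 and Cxcl1 0.0578. Cxcl1 also missed the threshold without Gadd45a-KO replicate 3 or DKO replicate 1, and without DKO replicate 3 Cdkn2b and Tnf passed too. Under normexp background correction all 3 genes passed with smaller changes, -0.95 for Il1b, -0.98 for Cdkn2a and -0.47 for Cxcl1. The Gadd45a-KO arrays enter this comparison and that against WT.

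Averaged over both Gadd45a backgrounds, the 6 arrays without Ing1 differed from the 6 with it for the same 3 genes. Il1b fell by 1.02 ± 0.18 on the log2 scale (adjusted p = 0.0084), Cdkn2a fell by 0.98 ± 0.21 (adjusted p = 0.0158) and Cxcl1 fell by 0.70 ± 0.15 (adjusted p = 0.0144), which is 2.03-fold, 1.97-fold and 1.63-fold. Of all features 16% passed here and 9.09% passed as lower. Il6 at -0.46 ± 0.21 (adjusted p = 0.15), Tnf at -0.29 ± 0.17 (adjusted p = 0.27) and Cdkn2b at 0.23 ± 0.15 (adjusted p = 0.30) did not pass; without DKO replicate 3, Cdkn2b passed at 0.37 (adjusted p = 0.0333). Cxcl1 was the only gene of the 6 whose values did not overlap between the 6 and the 6 arrays, against 4.91% of all features. This comparison holds the DKO and Gadd45a-KO arrays described above and is not separate evidence. Under normexp background correction the 3 genes passed at -0.57, -0.60 and -0.30.

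The corresponding contrast for Gadd45a, 6 arrays labelled as lacking it against 6 with it, called none of the 6 genes in limma's fit, and 0.00318% of all features passed. None had an unadjusted p under 0.05, against 0.935% of all features. The log2 fold changes were 0.28 ± 0.18 for Il1b, 0.26 ± 0.15 for Cdkn2b, 0.08 ± 0.21 for Il6, 0.07 ± 0.21 for Cdkn2a, -0.14 ± 0.17 for Tnf and -0.14 ± 0.15 for Cxcl1. In DKO against Ing1-KO none passed either, as against 0.00318% of all features, and the smallest p was that of Cxcl1 at -0.48 ± 0.21 (adjusted p = 0.948), the 1 gene of 6 with an unadjusted p under 0.05, against 3.51% of all features. Its values lay below Ing1-KO without overlap, as did those of 3.75% of all features. The interaction, which asks whether the effect of Ing1 loss differs with Gadd45a, called none of the 6 genes and 0% of all features. Its smallest p was that of Il1b, at -1.29 ± 0.37 with adjusted p = 0.728, and 3 of 6 genes had an unadjusted p under 0.05 against 5.93% of all features. A difference between the Ing1 effects in the 2 backgrounds was thus not established for any of these genes.

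**Figure D3:**
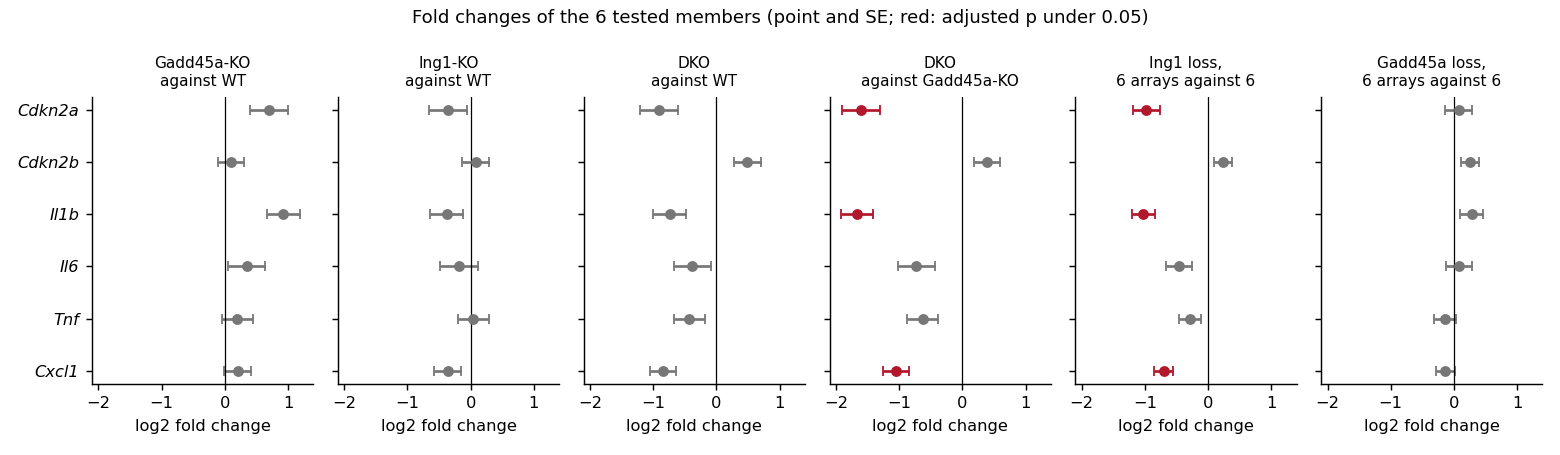
Log2 fold change (x axis) with its SE for the 6 tested genes (y axis) in 6 comparisons, red where the adjusted p is under 0.05. Il1b, Cdkn2a and Cxcl1 are red and to the left of 0 in DKO against Gadd45a-KO and in the 6-against-6 comparison for Ing1, and no gene is red in the other panels.

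Part of the immune cell markers fell in DKO against Gadd45a-KO and in the 6-against-6 comparison for Ing1, where 8.47% and 9.09% of all features fell. Of 11 measured neutrophil markers, 7 fell in DKO against Gadd45a-KO and 7 fell in the 6-against-6 comparison for Ing1; without Gadd45a-KO replicate 2 in the former, or WT replicate 1 in the latter, 3 did. Of the 12 on the array, 7 were above background on all arrays and each on at least 1. The summed normalized signal of the neutrophil list was 113021 to 129639 in WT, 129230 to 161552 in Gadd45a-KO, 99902 to 111073 in Ing1-KO and 101269 to 114352 in DKO. Gadd45a-KO replicate 1 was the highest array, with a mean deviation of 2.87 on the log2 scale from the mean over arrays. Il1b was instead highest in Gadd45a-KO replicate 2 and Cxcl1 in replicate 3, where the deviation was 1.81 and 0.45. DKO replicate 1, the lowest array for Il1b and Cxcl1, had the lowest deviation, at -1.19. By summed signal Ing1-KO replicate 1 was the lowest array. The 11 macrophage markers were above background on all 12 arrays; 4 fell in DKO against Gadd45a-KO, 1 without Gadd45a-KO replicate 2, and 3 fell in the 6-against-6 comparison, 1 without WT replicate 1. Their summed signal was 59616 to 81313 in WT, 76750 to 86100 in Gadd45a-KO, 55995 to 59087 in Ing1-KO and 48373 to 58676 in DKO. Of 8 dendritic cell markers 3 fell in each comparison, but none without Gadd45a-KO replicate 2 or 3 or DKO replicate 1 or 2 in the former, or without any 1 of Ing1-KO replicate 1, Gadd45a-KO replicate 3 and WT replicates 1 and 3 in the latter. The part of neutrophils, macrophages and dendritic cells in the differences of Il1b, Cdkn2a and Cxcl1 was not tested.

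Lymphocyte markers moved too, and DKO replicate 2 stood apart in them. Of 10 T cell markers, all above background on all 12 arrays, 9 fell in DKO against Gadd45a-KO and none did so without Gadd45a-KO replicate 3. In the 6-against-6 comparison for Ing1 8 of the T cell markers fell, and 1 without Gadd45a-KO replicate 3. Their summed signal was 100218 to 122361 in WT, 110921 to 147516 in Gadd45a-KO, 67752 to 103258 in Ing1-KO and 41209 to 85100 in DKO. DKO replicate 2, lowest for Tnf and Cdkn2a, was also the lowest array for the T cell list, at a mean deviation of -1.25, and for the B cell list, at -1.09. Of the 6 B cell markers, 2 fell in DKO against Gadd45a-KO and 1 in the 6-against-6 comparison for Ing1. In each comparison none fell without WT replicate 1, while all 6 fell without DKO replicate 3. Of the 15 white adipocyte markers, 8 rose in DKO against Gadd45a-KO, where 6.49% of all features rose. They numbered 1 without Gadd45a-KO replicate 2 and 13 without WT replicate 2. In the 6-against-6 comparison 5 rose, 2 to 13 with an array left out, where 6.93% of all features did. Features called in DKO against Gadd45a-KO moved too, from 15% to 1.71% without Gadd45a-KO replicate 3 and 3.43% without Gadd45a-KO replicate 2. Without DKO replicate 2 they were 2.03%, and without DKO replicate 1 they were 2.82%. They were 11.6% without WT replicate 1, 21.3% without WT replicate 2 and 22.5% without DKO replicate 3. The part of lymphocytes and of the adipocyte share was not tested.

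**Figure D4:**
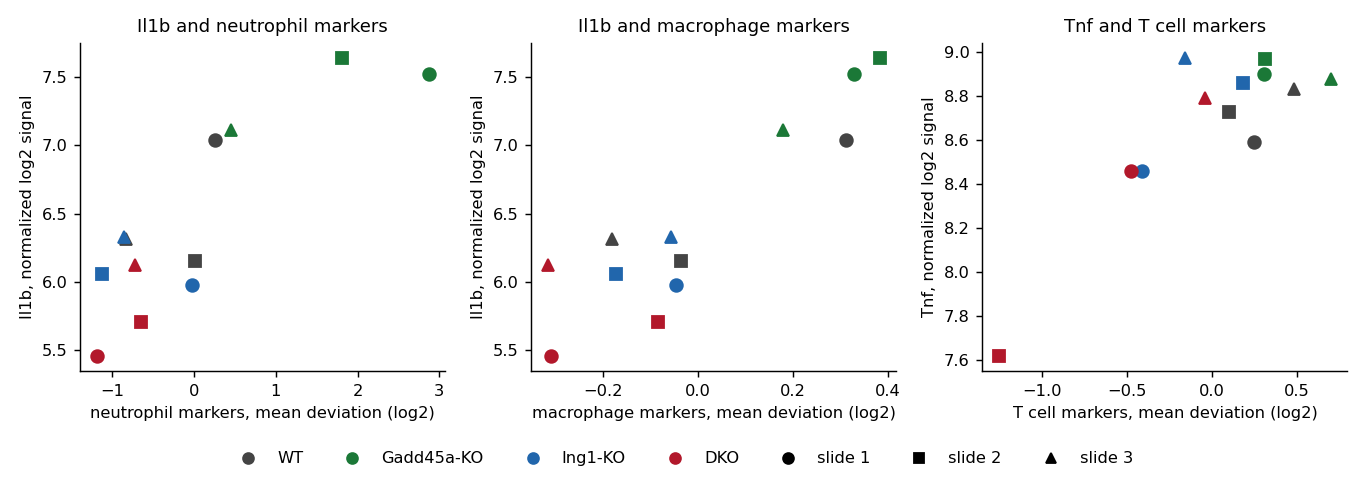
Normalized log2 signal of Il1b (y axis) against the mean log2 deviation of the neutrophil or macrophage markers (x axis), and of Tnf against that of the T cell markers, 1 point per array, coloured by genotype and shaped by slide. The Gadd45a-KO arrays lie at the upper right of the Il1b panels, and DKO replicate 2 lies alone at the lower left of the Tnf panel, at -1.25 for the markers.

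The genes around the members were counted in 9 lists of 145 genes on the array, 131 of them measured. In DKO against Gadd45a-KO 43 fell and 4 rose, and in the 6-against-6 comparison for Ing1 37 fell and 3 rose. Of all features 8.47% were lower in the former and 9.09% in the latter. The shares of all features that were higher were 6.49% and 6.93%, which the genes that rose did not exceed. With an array left out, the genes that fell numbered 9 to 51 in the former, 9 without Gadd45a-KO replicate 3, and 17 to 44 in the latter, 17 without Ing1-KO replicate 1. When the 6 arrays of DKO and Gadd45a-KO were fitted alone, 7 fell and 1 rose. Scaling bears on the balance over all features: in DKO against Gadd45a-KO 2664 were lower and 2040 higher, but 1739 lower and 2507 higher when arrays were centred on their medians. In limma's fits against WT no gene of these lists passed. At an unadjusted p under 0.05, 13 of the 131 were higher and 0 lower in Gadd45a-KO, against 1.54% and 0.808% of all features. In Ing1-KO 4 were higher and 6 lower, against 3.75% and 4.86%, which is near the share of all features. In DKO 8 were higher and 37 lower, against 10.2% and 12.8%, so the higher genes did not exceed that share. The values that follow are log2 fold changes of the 6-against-6 comparison for Ing1.

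By share of members that fell, the inflammasome and processing list came after the short list of ligands alone. Of 9 inflammasome and processing genes, 6 fell, with a median of -0.56 against -0.04 for all features. They include Mefv, encoding pyrin, at -1.07 ± 0.16 (adjusted p = 0.0060), the inflammasome adaptor Pycard at -0.77 ± 0.16 (adjusted p = 0.0149), the sensor Nlrp1b at -0.67 ± 0.17 (adjusted p = 0.0247) and the pore-forming Gsdmd at -0.52 ± 0.10 (adjusted p = 0.0121). All 3 measured other ligands and binding proteins of the family fell, Il33 by 0.62 ± 0.13, Il18 by 0.53 ± 0.12 and the Il18 inhibitor Il18bp by 0.42 ± 0.11. Of 7 receptors and decoys 2 fell, the inhibitory receptor Sigirr by 0.65 ± 0.13 and Il18r1 by 0.80 ± 0.18. Without Ing1-KO replicate 1 the inflammasome count was 3. The caspase genes Casp1 and Casp4 of the same list were not among those that fell. Casp1 means were 11.64 in WT, 11.95 in Gadd45a-KO, 11.87 in Ing1-KO and 11.69 in DKO. Those of Casp4 were 11.88, 12.25, 12.14 and 11.91 in the same order.

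Some receptors and signalling genes of the other cytokines fell. Of 11 genes of interleukin 6 and TNF reception 5 fell, and without Ing1-KO replicate 1, 1 fell. Among the 5 were the feedback inhibitor Socs3 by 0.56 ± 0.12, the receptor Il6ra by 0.40 ± 0.10 and the kinase Jak2 by 0.29 ± 0.08. The TNF receptor gene Tnfrsf1b fell by 0.48 ± 0.15 (adjusted p = 0.0483). The other TNF receptor gene, Tnfrsf1a, did not fall, with means of 12.85 in WT, 12.82 in Gadd45a-KO, 13.03 in Ing1-KO and 13.14 in DKO. Cxcr2, the receptor of Cxcl1 and itself on the neutrophil list, fell by 1.07 ± 0.14 (adjusted p = 0.0037) and was the only gene of 4 on its list to pass. Of 26 NF-kB signalling genes 5 fell, among them Bcl3 by 0.56 ± 0.10, Tradd by 0.40 ± 0.08, Traf2 by 0.38 ± 0.09 and Nfkb2 by 0.49 ± 0.11, but 3 without Ing1-KO replicate 1 and 10 without DKO replicate 3. The median of the NF-kB list was -0.14.

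Other secreted senescence factors included genes that fell and genes that rose. Of 31 measured, 9 fell and 2 rose, with a median of -0.07. Of all features 9.09% fell and 6.93% rose, so the genes that rose did not exceed that share. The chemokine Ccl8 fell by 1.95 ± 0.21 (adjusted p = 0.0016) and the urokinase receptor Plaur by 0.68 ± 0.12. The angiogenic factor Vegfa rose by 0.62 ± 0.09 (adjusted p = 0.0046) and the IGF-binding protein Igfbp4 by 0.58 ± 0.12. Ccl8 means were 13.30 in WT, 14.70 in Gadd45a-KO, 12.23 in Ing1-KO and 11.87 in DKO. In the list of other Cdk inhibitors and the Rb and p53 axis, 6 of 24 fell and 1 rose. Cyclin D1 (Ccnd1) fell by 0.51 ± 0.08, E2f2 by 0.49 ± 0.12 and Mdm4 by 0.38 ± 0.09, and Rb1 rose by 0.31 ± 0.07. That 1 gene did not exceed the share of all features that rose, and none of this list rose without WT replicate 3. Without WT replicate 1 the count that fell was 1, and without Ing1-KO replicate 1 the senescence factors that fell numbered 4; those that rose numbered 4 without DKO replicate 3. Of 17 known regulators of the Cdkn2a locus none passed in limma's fit, with a median of 0.01. At an unadjusted p under 0.05, 3 were higher and 1 lower, against 14.3% and 18.7% of all features, so the counts were near or below those shares. The Polycomb methyltransferase Ezh2, at -0.28 ± 0.09, and Bmi1, at 0.26 ± 0.09, had the smallest p, with adjusted p of 0.0573 and 0.0598.

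**Figure D5:**
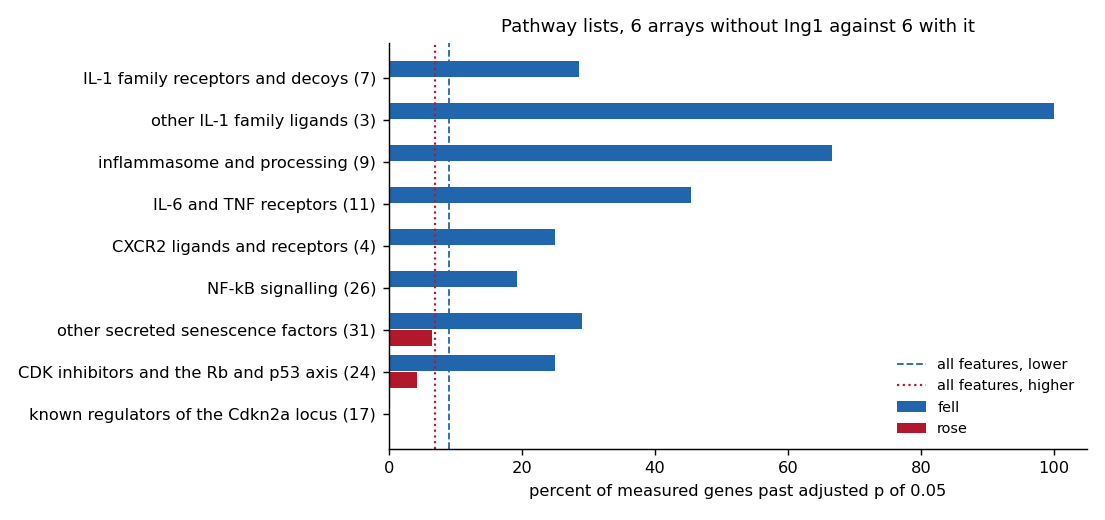
Percent of the measured genes (x axis) of each of the 9 lists (y axis, number measured in brackets) that fell (blue) or rose (red) in the 6-against-6 comparison for Ing1, with dashed and dotted lines for the same share of all features, 9.09% lower and 6.93% higher. The inflammasome and ligand bars are the longest, and the list of Cdkn2a regulators has no bar.

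The genes most like each member across the 12 arrays were named by Pearson correlation of normalized log2 signal among 15111 genes, as a description of arrays that share genotype, slide and cell makeup. For Il1b these were Sirpb1b (r = 0.978), Tmem51 (0.974) and Clec4n (0.972). For Cdkn2a they were Spaca9 (0.978), Syk (0.976) and Zfp296 (0.975), and for Tnf Fcer2a (0.984), Ccne1 (0.973) and Nrm (0.958). The Tnf correlations lean on DKO replicate 2, which read 7.62 against 8.46 to 8.97 on the other arrays. Cxcl1 was closest to Efhd2 (0.960), Etv6 (0.943) and Ccnd1 (0.936). Cdkn2b was closest to Bnip2 (0.949), Serpine2 (0.910) and Tiam2 (0.896).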

How the data were processed

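Scanner files of 12 one-colour arrays are intensity data, per the file headers background-subtracted and detrended by Feature Extraction 10.7.3.1. The authors' processed table, on a log2 scale, served as an alternative; the submitters' processing notes name limma 3.26.9. RefSeq accessions were named through a table of GRCm38.p6, 27509 of 29150 probes matching. Here the log2 processed signal was averaged over unmarked spots, and each array was scaled to a common 75th percentile. A probe entered the fit if 3 or more of the 12 arrays had it well above background, and each gene kept its brightest probe. Linear models with 4 genotype means (8 residual degrees of freedom) came from limma 3.58.1 (R 4.3.3), with trended, robust moderation and two-sided tests, and Benjamini-Hochberg adjustment ran over 31453 features. The fit was tested on simulated data. The members, lists, tests and alternatives were chosen with earlier results of these data known. Named were all members, the 4 genes with the smallest p per list, and the 3 genes most correlated with each member detected on all arrays. Casp1, Casp4 and Tnfrsf1a were named besides. Alternatives are in the closing section. Replicate numbers mark slides; whether they also pair animals is not given in the sources used here.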

Additional observations from a re-analysis of the deposited data

Results flagged for a closer look

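Il1b drew attention because the Gadd45a contrast ran in opposite directions in the 2 Ing1 backgrounds. In mice with Ing1, Gadd45a-KO exceeded WT by 0.48, 1.495 and 0.80 on the log2 scale within the 3 slides, and in mice without Ing1, DKO was below Ing1-KO, with differences of -0.53, -0.35 and -0.20. The test of the difference itself, the interaction, gave -1.29 ± 0.37 (SE) with adjusted p = 0.728 in limma's fit, so it did not pass the correction over all features. The change of direction was not particular to Il1b. Cdkn2a, Cxcl1, Tnf and Il6 were at 0.70, 0.20, 0.20 and 0.35 in Gadd45a-KO against WT. In DKO against Ing1-KO they were at -0.55, -0.48, -0.47 and -0.20, and Il1b at -0.36 ± 0.26. Cdkn2b was higher in both, by 0.10 and 0.41.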

How the results depend on the processing

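Each comparison was recomputed under up to 11 alternatives, and with each array left out in turn. The alternatives were quantile normalization, median centring, normexp (offset 50), the deposited processed values, and no filter or a filter on all 12 arrays. The others were every probe, plain moderation, the replicate number or the array row as a block, and only the arrays compared. The last was run between pairs of groups only, not for the 6-against-6 comparisons or the interaction. Il6 was not in the fit under the filter on all 12 arrays. Of 1078 alternative values of 48 fold changes (6 genes in 8 comparisons), 1060 kept their direction and side of the threshold, 4 lost the call, 7 gained one and 7 changed sign. In DKO against WT, 0 members passed, but 1 with the replicate block (Cxcl1) and 0 to 3 with an array left out. In DKO against Gadd45a-KO, 3 passed, but 1 (Il1b) with only the arrays compared, and 2 to 5 with an array left out. The replicate block changed no other call of a member. It raised the features called in DKO against WT from 51 to 653. The number marks the slide. The deviations of 9 of 18 same-numbered pairs correlated above 0.1, from -0.28 to 0.42, short of every pair, while 9 of 12 arrays were closest to an array of their own number, a hint from the data and not the design. The sign changes were those of Tnf, Cdkn2a and Il6. Tnf in Ing1-KO against WT ranged from -0.0609 to 0.197 with an array left out, and was below 0 without WT replicate 1 and Ing1-KO replicates 2 and 3 in turn. In the 6-against-6 comparison for Gadd45a, Tnf ranged from -0.263 to 0.0299, above 0 without DKO replicate 2, and Cdkn2a ranged from -0.0563 to 0.295, below 0 without DKO replicate 1 or 3. Il6 in DKO against Ing1-KO ranged from -0.318 to 0.0402, above 0 without DKO replicate 3. The cause was not tested. Features called in DKO against Gadd45a-KO numbered 4704, 539 to 7065 with an array left out and 502 with only the arrays compared. Those called for Ing1, 6 arrays against 6, numbered 5038, 1901 to 7087 with an array left out. Signal over background limits Il6, Il1a, Il1rn and the second Cdkn2a probe.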
